A study of Mus musculus with 10 samples.

Results

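The genes described here are those for the adrenergic receptors of the mouse heart and for the proteins that make and break down cyclic AMP downstream of them. They are 9 of the 54532 genes in the count table, taken by gene symbol: the receptors Adrb1, Adra1a and Adra1b, the G protein subunit Gnas, the adenylyl cyclases Adcy5 and Adcy6, and the phosphodiesterases Pde3a, Pde4b and Pde4d. All 9 had enough reads to be tested, among 13864 tested genes. RNA was sequenced from hearts of 8-week-old C57BL/6 mice, 5 taken 24 h after an injection of lipopolysaccharide (LPS), a cell wall component of Gram-negative bacteria used to model sepsis, and 5 injected with saline. No genetic alteration is labelled for either group, and the labels used here give neither sex nor dose. The labels give each library a mouse number of its own but do not state separate litters or days, so p-values measure the spread between these libraries.

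In cardiomyocytes, noradrenaline and adrenaline bind the β1-adrenoceptor, which activates the stimulatory G protein Gs, and Gs activates adenylyl cyclase to make cyclic AMP. Cyclic AMP activates protein kinase A, which phosphorylates calcium-handling and contractile proteins and so raises the rate and force of the heartbeat. Phosphodiesterases break cyclic AMP down, receptor kinases and arrestins silence the receptors, and the α1-adrenoceptors signal through Gq rather than through cyclic AMP.

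Pde4b rose and Adrb1 fell in LPS hearts, and these were the members whose LPS and saline libraries did not overlap. The windows below are the 250 bases before the annotated transcript starts of these genes, shown because the results turn on them, in the RefSeq table for GRCm38.p6. Pde4b has 4 such windows because it has several promoters, and the counts are summed over the whole gene, so the data do not tell which start was used. The 4 windows do not cover the first position of Pde4b in the count table, 102087543, which lies upstream of them all. Capitals mark the short cyclic AMP response element TGACG, on either strand, or the GC box GGGCGG, on either strand.

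Pde4b window 1, chr4:102421305-102421554, plus strand: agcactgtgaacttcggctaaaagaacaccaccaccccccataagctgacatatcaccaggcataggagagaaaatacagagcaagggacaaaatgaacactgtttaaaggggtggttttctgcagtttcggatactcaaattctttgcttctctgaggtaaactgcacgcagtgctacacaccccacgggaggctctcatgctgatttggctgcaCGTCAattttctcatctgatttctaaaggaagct

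Pde4b window 2, chr4:102569810-102570059, plus strand: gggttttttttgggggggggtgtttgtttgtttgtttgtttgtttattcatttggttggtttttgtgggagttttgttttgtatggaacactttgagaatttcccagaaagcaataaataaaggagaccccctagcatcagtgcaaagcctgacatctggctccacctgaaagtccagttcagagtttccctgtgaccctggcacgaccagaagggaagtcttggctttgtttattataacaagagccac

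Pde4b window 3, chr4:102587308-102587557, plus strand: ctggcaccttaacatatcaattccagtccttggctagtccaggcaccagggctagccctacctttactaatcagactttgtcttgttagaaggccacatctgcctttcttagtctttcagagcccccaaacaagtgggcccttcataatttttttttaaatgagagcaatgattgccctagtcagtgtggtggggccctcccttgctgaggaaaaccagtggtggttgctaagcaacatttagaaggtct

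Pde4b window 4, chr4:102589593-102589842, plus strand: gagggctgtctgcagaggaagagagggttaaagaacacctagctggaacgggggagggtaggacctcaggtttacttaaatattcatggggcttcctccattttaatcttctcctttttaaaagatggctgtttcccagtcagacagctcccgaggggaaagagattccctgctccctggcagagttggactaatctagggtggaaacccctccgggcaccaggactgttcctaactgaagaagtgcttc

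Adrb1 window, chr19:56721867-56722116, plus strand: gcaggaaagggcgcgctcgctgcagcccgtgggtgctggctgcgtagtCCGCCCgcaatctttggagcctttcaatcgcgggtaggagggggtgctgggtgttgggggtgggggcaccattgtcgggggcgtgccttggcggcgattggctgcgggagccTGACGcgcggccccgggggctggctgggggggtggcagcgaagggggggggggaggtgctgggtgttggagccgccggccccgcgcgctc

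The short element lay 34 bases before the start in the first Pde4b window, on the minus strand. It lay 90 bases before the RefSeq start of Adrb1, on the plus strand. That RefSeq start is at 56722117, upstream of the gene start at 56722372 in the count table. The Adrb1 window also held a GC box 202 bases before the start, on the minus strand, and its GC content was 74.0%, against 43.2% to 50.8% in the Pde4b windows. The search covered 6 motifs on both strands, some of which can overlap, in the 13 windows that matched 6 of the 9 members; Adra1a, Adcy6 and Pde3a had no entry. A pair of Gnas windows share 231 of their 250 bases, so the 13 windows are 12 separate stretches. The short element TGACG was in 5 of the 13 windows, or 4 of the 12 stretches, and 17.8% of all 32851 windows of this length held it. The whole element TGACGTCA was in 0 of 13, with a share of 1.55% over all windows. The NF-κB motif (GGG and TTTCC, 2 bases apart) was in 0 of 13 and 1.41% of all windows, and the glucocorticoid response element (GNACA and TGTNC, 3 bases apart) in 0 of 13 and 0.387%. The GC box was in 5 of 13 and 32.7% of all windows, and the TATA box TATAAA in 3 of 13 (2 of the 12 stretches) and 12.4% of all windows. A match is a match of letters only, and no match says only that these letters are not in these windows.

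Of the 9 members, 1 rose and 1 fell past an adjusted p of 0.05 in edgeR's quasi-likelihood test (Benjamini-Hochberg over all tested genes). That is 22.2% of the members, against 39.9% of all tested genes, of which 18.9% rose and 21.0% fell. Groups that did not overlap in CPM (read counts scaled to a TMM-adjusted library size) were found in 2 of the 9 members and in 28.4% of all tested genes. On the log2 scale the median fold change was 0.07 for members, and -0.02 for the 13864 genes. Saline replicate 5 lay between the groups on the first principal component, at 0.563, with the LPS libraries at -55.0 to -43.7 and the other 4 saline libraries at 55.1 to 67.0, and values without it are given for the members and wherever a count or call changes. Without it, 44.0% of tested genes passed and the members that passed were again Pde4b and Adrb1. Total counts were 14607969 to 17012372 reads per library over both groups. TMM factors, which correct for a few genes taking many of the reads, were 0.829 to 0.958 in LPS and 1.00 to 1.15 in saline libraries, and scaling by total count alone moved the median of all genes to -0.30.

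**Figure D1:**
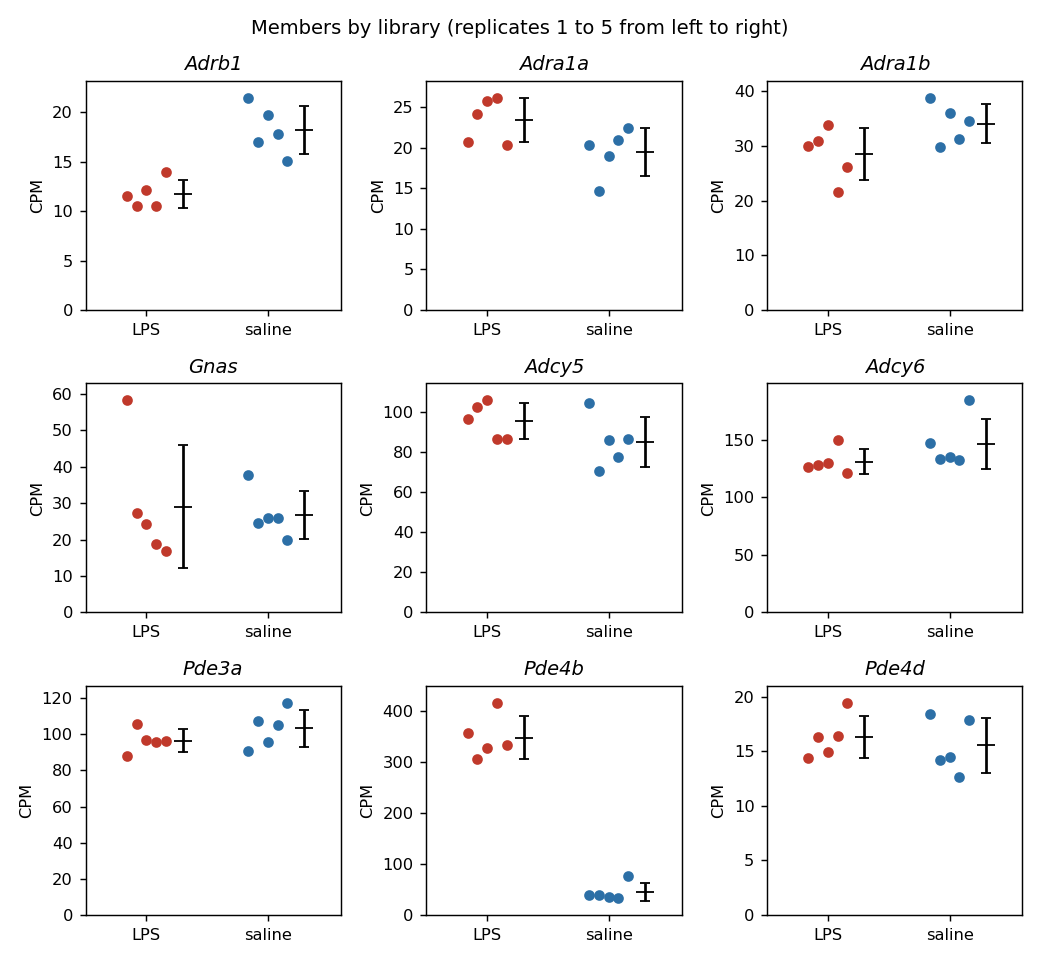
CPM of the 9 members in each library (points, replicates 1 to 5 from left to right), with the mean and SD over 5 libraries beside them, LPS on the left and saline on the right of each panel. Pde4b (307 to 416 CPM in LPS, 34.0 to 76.1 CPM in saline) and Adrb1 (10.5 to 14.0 CPM in LPS, 15.1 to 21.4 CPM in saline) are the panels in which the groups do not overlap.

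Adrb1 (ENSMUSG00000035283, GRCm38 chromosome 19, 56722372 to 56724862, plus strand) encodes the β1-adrenoceptor, the main receptor through which catecholamines drive the heart. It had 11.6, 10.5, 12.1, 10.6 and 14.0 CPM in LPS replicates 1 to 5, against 21.4, 16.9, 19.7, 17.8 and 15.1 CPM in saline replicates 1 to 5. Every LPS library was below every saline library, and the nearest were LPS replicate 5 and saline replicate 5. The means were 11.7 ± 1.42 CPM in LPS and 18.2 ± 2.47 CPM in saline (SD, n = 5 each). Adrb1 fell by 0.63 on the log2 scale (SE 0.12, 95% interval -0.88 to -0.39, adjusted p = 0.00104 in edgeR), which is 0.645 times the saline level. Without saline replicate 5 the log2 fold change was -0.69 (edgeR adjusted p = 0.000293).

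Adra1a and Adra1b encode the α1A- and α1B-adrenoceptors, both coupled to Gq and found on cardiomyocytes. Adra1a (ENSMUSG00000045875, chromosome 14, 66635251 to 66771168, plus strand) had 20.8, 24.1, 25.8, 26.1 and 20.3 CPM in LPS replicates 1 to 5, against 20.3, 14.7, 19.0, 20.9 and 22.4 CPM in saline replicates 1 to 5. Its groups overlapped, with LPS replicates 2, 3 and 4 above every saline library, and the log2 fold change of 0.27 ± 0.12 (SE) did not pass (edgeR adjusted p = 0.106). Adra1b (ENSMUSG00000050541, chromosome 11, 43774606 to 43901210, minus strand) had 30.0, 31.0, 33.8, 21.6 and 26.2 CPM in LPS, against 38.8, 29.9, 36.0, 31.3 and 34.6 CPM in saline, in the same order. LPS replicates 4 and 5 were the lowest libraries and the groups overlapped. Its log2 fold change was -0.26 ± 0.12 (SE, edgeR adjusted p = 0.111), and with total-count scaling it passed at -0.52 (edgeR adjusted p = 0.00804).

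The balance between the α1 receptors differed between the groups although neither gene passed on its own. The log2 ratio of Adra1a to Adra1b counts within a library, which does not depend on library scaling, was -0.28 ± 0.31 in LPS and -0.82 ± 0.20 in saline (SD, n = 5 each), a difference of 0.54. Adra1b counts exceeded Adra1a counts in all 5 saline libraries and in 4 of the 5 LPS libraries, and in LPS replicate 4 the log2 ratio was 0.273. The ranges did not overlap, with LPS libraries at -0.53 to 0.27 and saline libraries at -1.02 to -0.58. The exact two-sided permutation test over all assignments of libraries to groups gave p = 0.00794, the smallest it can give, and 0.0198 adjusted over the 5 ratios computed.

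Adra2b, an α2-adrenoceptor that couples to Gi, had 1 read over the 5 LPS libraries and 114 reads over the 5 saline libraries, a saline level 89.0 times the LPS level with an exact 95% interval of 15.7 to 3550 that covers counting error only. The saline libraries alone took Adra2b through the filter on low counts, so no p-value is given for it. Adra1d, the α1D-adrenoceptor, had 1.87 ± 0.628 CPM in LPS and 2.39 ± 0.389 CPM in saline, and its groups overlapped.

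Markers of endothelial cells moved with Adra2b. All 6 of 6 endothelial markers fell, and their summed level was 471 to 598 CPM in LPS and 809 to 1410 CPM in saline, with saline replicate 5 lowest of its group. Cardiomyocyte markers, by contrast, had 0 of 6 past the threshold, and their sum was 38600 to 41100 CPM in LPS and 35200 to 43200 CPM in saline. With total-count scaling 4 of 6 cardiomyocyte markers fell, with a median log2 fold change of -0.27, when that of all genes was -0.30. Endothelial markers then had 6 of 6 falling and a median of -1.37. The part of endothelial RNA in the Adra2b value was not tested. In whole-heart RNA, fewer cells of a type and less RNA per cell cannot be told apart.

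Gnas encodes the α subunit of Gs, which links the β-adrenoceptors to adenylyl cyclase. The gene (ENSMUSG00000027523, chromosome 2, 174284320 to 174346744, plus strand) had 58.2, 27.3, 24.3, 18.8 and 16.8 CPM in LPS replicates 1 to 5, against 37.9, 24.5, 25.9, 25.9 and 20.0 CPM in saline replicates 1 to 5. LPS replicate 1 stood above every other library, and the groups overlapped over most of their range. The log2 fold change was 0.12 ± 0.35 (SE, edgeR adjusted p = 0.817), and without LPS replicate 1 it was -0.29 (adjusted p = 0.242). These counts are uncertain: 1466 of the 1716 exon bases (85.4%) of the Gsα transcript Gnas-208, and 96.4% of its coding bases, lie in exons of Gm20721 on the opposite strand. Gm20721 had 0 reads in LPS and 7 reads in saline libraries. Whether counting used the strand, and how reads in shared stretches were assigned, is not stated in the labels or notes, so the Gnas level may not be that of Gsα, and this was not tested.

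The log2 ratio of Adrb1 to Gnas counts was -1.16 ± 0.77 in LPS and -0.54 ± 0.17 in saline (SD, n = 5 each). The difference of -0.62 did not pass (exact permutation p = 0.0952, adjusted 0.119), and LPS replicate 1 had the lowest ratio, -2.33.

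Among 15 other tested G protein subunits, 2 rose and 3 fell (33.3%, against 39.9% of all tested genes). Their median log2 fold change was -0.15. Gnb4, a β subunit, averaged 103 ± 17.3 CPM in LPS and 24.6 ± 3.65 CPM in saline, a log2 fold change of 2.07 ± 0.14 (SE, edgeR adjusted p = 1.41e-07). Gng12, a γ subunit, averaged 135 ± 22.5 CPM in LPS and 52.4 ± 1.71 CPM in saline (log2 fold change 1.37). The γ subunits Gng11 and Gng2 fell by 1.00 and 0.80 on the log2 scale, and in both the groups overlapped. Gnai2, an α subunit of Gi, which inhibits adenylyl cyclase, averaged 274 ± 23.4 CPM in LPS and 254 ± 18.5 CPM in saline and did not pass (edgeR adjusted p = 0.351). Without saline replicate 5 the list had 3 rising and 4 falling genes, with Gnai3, another Gi subunit gene, among those rising (log2 fold change 0.56, edgeR adjusted p = 0.000121, against 0.37 and 0.0659 with it) and Gnb2 among those falling (-0.27, adjusted p = 0.0411, against -0.24 and 0.0717).

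Of 12 tested receptor kinases, arrestins and regulators of G protein signalling (RGS), 1 rose and 6 fell, with a median log2 fold change of -0.45. Grk5, a receptor kinase of cardiomyocytes, rose: it averaged 54.7 ± 2.42 CPM in LPS and 36.9 ± 2.72 CPM in saline (log2 fold change 0.57 ± 0.08 SE, edgeR adjusted p = 8.28e-05), with no overlap. Grk2, the kinase best known for desensitising the β1-adrenoceptor, averaged 70.5 ± 4.63 CPM in LPS and 74.6 ± 3.92 CPM in saline and did not pass (edgeR adjusted p = 0.452). With total-count scaling Grk2 passed at -0.35 (edgeR adjusted p = 0.00869). Both β-arrestins, which bind phosphorylated receptors, fell without overlap. Arrb1 averaged 14.3 ± 1.66 CPM in LPS and 38.6 ± 4.76 CPM in saline (log2 fold change -1.44), and Arrb2 averaged 2.05 ± 0.209 CPM in LPS and 9.45 ± 2.16 CPM in saline (log2 fold change -2.20). Rgs3 and Rgs2, which speed the shut-off of G protein α subunits, fell by 1.74 and 0.92 on the log2 scale, Rgs3 without overlap. The endothelial marker sum given above moved the same way as the falling genes, and its part in them was not tested.

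Adcy5 and Adcy6 encode the main adenylyl cyclases of cardiomyocytes. Adcy5 (ENSMUSG00000022840, chromosome 16, 35154877 to 35305738, plus strand) had 96.5, 102, 106, 86.2 and 86.3 CPM in LPS replicates 1 to 5, against 104, 70.6, 85.6, 77.3 and 86.2 CPM in saline replicates 1 to 5. Adcy6 (ENSMUSG00000022994, chromosome 15, 98589973 to 98610076, minus strand) had 127, 128, 130, 150 and 121 CPM in LPS, against 147, 134, 135, 133 and 184 CPM in saline, in the same order. Groups overlapped in both genes, and the highest Adcy6 value was in saline replicate 5. The log2 fold change was 0.17 ± 0.11 (SE, edgeR adjusted p = 0.238) for Adcy5 and -0.16 ± 0.11 (SE, edgeR adjusted p = 0.258) for Adcy6. With total-count scaling Adcy6 passed at -0.43 (edgeR adjusted p = 0.00129) and Adcy5 changed sign to -0.10. Their log2 ratio within a library was -0.46 ± 0.20 in LPS and -0.79 ± 0.23 in saline (SD, n = 5 each), so Adcy6 counts exceeded Adcy5 counts in all 10 libraries. The difference of 0.33 did not pass (exact permutation p = 0.0556, adjusted 0.0926).

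Of 6 other tested adenylyl cyclases, 1 rose and 3 fell (66.7%, against 39.9% of all tested genes). Their median log2 fold change was -0.48. Adcy7, known from immune cells, averaged 6.02 ± 1.72 CPM in LPS and 18.5 ± 4.33 CPM in saline (log2 fold change -1.62 ± 0.21 SE). Adcy4, a cyclase of endothelial cells, averaged 20.0 ± 2.16 CPM in LPS and 29.8 ± 2.83 CPM in saline (log2 fold change -0.57), and Adcy3 fell by 1.63 on the log2 scale at a low level, with 22.1% of its exon bases shared with Cenpo on the opposite strand. None of these 3 overlapped between groups. Adcy9 rose by 0.50 on the log2 scale (edgeR adjusted p = 0.0139), with overlap, and did not pass with total-count scaling (0.23, adjusted p = 0.259).

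**Figure D2:**
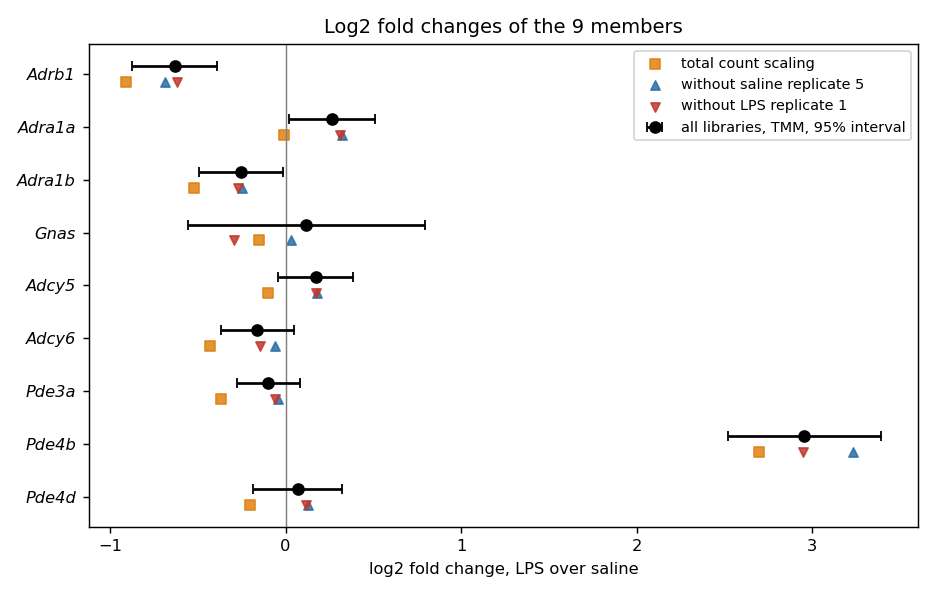
Log2 fold change, LPS over saline, of each member with its approximate unadjusted 95% interval (black). Coloured points are total-count scaling, without saline replicate 5 and without LPS replicate 1. The intervals use a normal multiplier of the SE and are narrower than the F-test implies. Those of Adra1a and Adra1b exclude 0, although their unadjusted edgeR p-values are 0.0512 and 0.0539. Pde4b stays between 2.70 and 3.23 and Adrb1 between -0.91 and -0.55 over all 18 alternatives run, while Gnas, Adra1a, Adcy5 and Pde4d change sign in at least 1 of those drawn.

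Pde4b encodes a cyclic AMP-specific phosphodiesterase that is found in cardiomyocytes and is also the PDE4 form known for its induction by LPS in monocytes and macrophages. The gene (ENSMUSG00000028525, chromosome 4, 102087543 to 102607259, plus strand) had 357, 307, 327, 416 and 333 CPM in LPS replicates 1 to 5, against 39.8, 39.3, 35.4, 34.0 and 76.1 CPM in saline replicates 1 to 5. Every LPS library lay above every saline library, and saline replicate 5 was the highest of its group. The means were 348 ± 42.2 CPM in LPS and 44.9 ± 17.6 CPM in saline (SD, n = 5 each). Pde4b rose 7.75-fold, a log2 fold change of 2.95 (SE 0.22, 95% interval 2.52 to 3.39, edgeR adjusted p = 1.99e-06). Without saline replicate 5 the log2 fold change was 3.23 (edgeR adjusted p = 1.07e-11).

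Markers of macrophages and monocytes did not rise as a group beside Pde4b: 1 of 6 rose (Cd14) and 3 of 6 fell, and their summed level was 282 to 445 CPM in LPS and 334 to 493 CPM in saline. Neutrophil markers had 2 of 4 tested genes rising, and their summed level was 12.9 to 38.9 CPM in LPS and 1.29 to 23.0 CPM in saline, where saline replicate 5 held the 23.0 and the other saline libraries reached 4.01. Ly6g, which defines mouse neutrophils, had 8 reads over the LPS libraries and 1 over the saline libraries. With saline replicate 5 left out, 4 of 4 tested neutrophil markers rose. The part of neutrophil or monocyte RNA in the Pde4b value was not tested.

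Pde3a and Pde4d encode the other phosphodiesterases most studied at cardiomyocyte calcium stores and β-adrenoceptors. Pde3a (ENSMUSG00000041741, chromosome 6, 141249269 to 141507448, plus strand) had 87.9, 106, 96.9, 96.0 and 96.6 CPM in LPS replicates 1 to 5, against 91.0, 108, 95.6, 105 and 117 CPM in saline replicates 1 to 5. Pde4d (ENSMUSG00000021699, chromosome 13, 108449948 to 109953461, plus strand) had 14.4, 16.3, 14.9, 16.4 and 19.4 CPM in LPS, against 18.4, 14.2, 14.5, 12.7 and 17.8 CPM in saline, in the same order. Groups overlapped in both genes. The log2 fold change was -0.10 ± 0.09 for Pde3a (SE, edgeR adjusted p = 0.425) and 0.07 ± 0.13 for Pde4d (SE, edgeR adjusted p = 0.709). With total-count scaling Pde3a passed at -0.37 (edgeR adjusted p = 0.00266) and Pde4d changed sign to -0.20.

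Pde4b moved apart from its family member Pde4d. The log2 ratio of Pde4b to Pde4d counts was 4.41 ± 0.25 in LPS and 1.48 ± 0.37 in saline (SD, n = 5 each), a difference of 2.94 without overlap (exact permutation p = 0.00794, the smallest possible, adjusted 0.0198). The ratio of Pde3a to Pde4d was 2.57 ± 0.16 in LPS and 2.74 ± 0.28 in saline, a difference of -0.17 that did not pass (exact permutation p = 0.238).

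**Figure D3:**
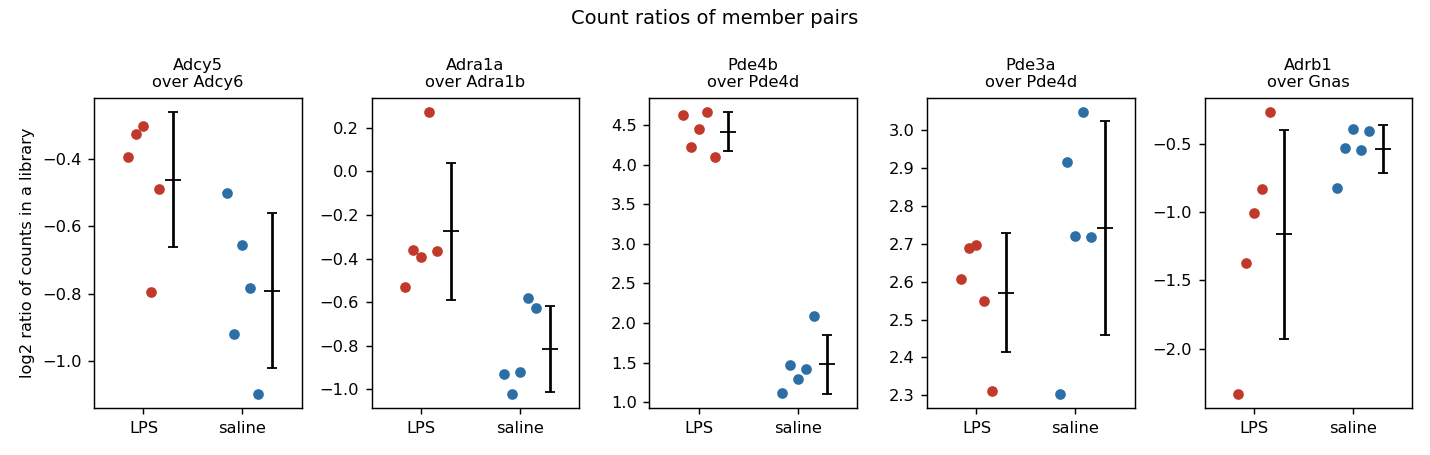
Log2 ratio of the counts of 2 members within each library, LPS on the left and saline on the right, with the mean and SD over 5 libraries (each panel has its own vertical scale, which does not start at 0). The groups separate for Adra1a over Adra1b (-0.53 to 0.27 in LPS, -1.02 to -0.58 in saline) and for Pde4b over Pde4d (4.10 to 4.66 in LPS, 1.11 to 2.09 in saline), and overlap for the other 3.

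Levels can be set between genes only per length, as in the FPKM values that the authors deposited, which use 1 length for each gene whatever its transcripts. In LPS hearts the order was Pde4b (35.4 ± 4.22 FPKM), Adcy6 (20.8), Adcy5 (14.2), Adra1b (9.05), Pde3a (8.14), Adrb1 (5.06), Adra1a (2.88), Gnas (2.79) and Pde4d (1.46). In saline hearts it was Adcy6 (22.7 FPKM), Adcy5 (12.4), Adra1b (10.6), Pde3a (8.54), Adrb1 (7.68), Pde4b (4.48 ± 1.78), Gnas (2.52), Adra1a (2.35) and Pde4d (1.36). Pde4b was the first in that order in LPS hearts and the sixth in saline hearts. The Gnas value rests on a length of 11186 bases, against 1716 exon bases of Gnas-208, and may not be the level of Gsα. In LPS hearts the neighbours whose libraries overlapped were Adra1b with Pde3a, Adra1a with Gnas, and Gnas with Pde4d. In saline hearts all neighbours from Adcy5 down to Adra1a overlapped, and Adcy6 stood apart above them and Pde4d below. Of the summed FPKM of Pde3a, Pde4b and Pde4d, Pde4b made up 75.1% to 81.6% in LPS libraries, against 25.7% to 30.3% in saline replicates 1 to 4 and 40.2% in saline replicate 5.

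Of 12 other tested cyclic nucleotide phosphodiesterases, 2 rose and 4 fell (50%, against 39.9% of all tested genes). Their median log2 fold change was -0.22. Pde4a, the PDE4 gene nearest to Pde4b in CPM in saline hearts, averaged 64.8 ± 6.71 CPM in LPS and 57.9 ± 4.33 CPM in saline and did not pass (edgeR adjusted p = 0.179). Pde4c, the other PDE4 gene, averaged 2.37 ± 0.578 CPM in LPS and 6.23 ± 0.561 CPM in saline and fell by 1.39 on the log2 scale. Pde8b, a cyclic AMP-specific enzyme, averaged 1.71 ± 0.512 CPM in LPS and 4.51 ± 0.923 CPM in saline and fell by 1.40. Pde1a, a calmodulin-activated enzyme, averaged 15.5 ± 4.74 CPM in LPS and 8.52 ± 1.13 CPM in saline and rose by 0.86, and Pde10a fell by 0.85.

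Among the effectors of cyclic AMP, protein kinase A had 2 of 9 tested genes rising and 1 falling. That is 33.3%, against 39.9% of all tested genes, with a median log2 fold change of 0.10 for the list. Prkar1b, a regulatory subunit, averaged 5.52 ± 0.558 CPM in LPS and 1.78 ± 0.374 CPM in saline (log2 fold change 1.63, edgeR adjusted p = 1.21e-05). The catalytic subunit gene Prkacb averaged 58.1 ± 4.49 CPM in LPS and 72.2 ± 2.50 CPM in saline and fell by 0.31 on the log2 scale, without overlap. The major catalytic subunit gene of the heart, Prkaca, averaged 213 ± 13.5 CPM in LPS and 197 ± 24.2 CPM in saline and did not pass (edgeR adjusted p = 0.384). Pkib, which encodes a protein kinase A inhibitor, rose by 0.83 near the lower limit of detection (edgeR adjusted p = 0.0327), and not with total-count scaling (0.56, adjusted p = 0.127).

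A-kinase anchoring proteins hold protein kinase A at its targets. Of 9 tested, 3 rose and 2 fell (55.6%, against 39.9% of all tested genes). Akap12, which anchors protein kinase A at the cell membrane, had 677, 648, 572, 797 and 779 CPM in LPS replicates 1 to 5, against 69.5, 78.0, 68.3, 74.5 and 180 CPM in saline replicates 1 to 5. All LPS libraries lay above all saline libraries, and saline replicate 5 stood above the rest of its group. Akap12 rose by 2.88 on the log2 scale (SE 0.30, edgeR adjusted p = 4.44e-05). Akap13, which also activates RhoA, averaged 183 ± 16.5 CPM in LPS and 105 ± 14.4 CPM in saline (log2 fold change 0.80), and Akap8, a nuclear anchor, averaged 18.9 ± 3.55 CPM in LPS and 35.9 ± 6.31 CPM in saline (log2 fold change -0.93). Akap1 fell by 0.25 (edgeR adjusted p = 0.0409), and not without saline replicate 5 (-0.21, adjusted p = 0.0802). Akap11 rose by 0.42, and not with total-count scaling (0.14, adjusted p = 0.301).

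Of the other cyclic AMP sensors, the 5 Epac and Popeye genes had 1 rising and 1 falling (40%, against 39.9% of all tested genes). Rapgef3, which encodes Epac1, had 4.15, 6.30, 7.80, 6.88 and 9.75 CPM in LPS replicates 1 to 5, against 31.7, 38.5, 32.6, 34.4 and 27.0 CPM in saline replicates 1 to 5. Every LPS library was below every saline library, and Rapgef3 fell by 2.23 on the log2 scale (SE 0.18, edgeR adjusted p = 8.76e-07). Epac1 is also found in endothelial cells, whose markers fell as given above, and their part was not tested. Popdc2, a cyclic AMP-binding membrane protein of muscle, averaged 486 ± 60.3 CPM in LPS and 337 ± 27.9 CPM in saline and rose by 0.53, and with total-count scaling it did not pass (0.25, adjusted p = 0.0531). Bves, another Popeye gene, also rose once saline replicate 5 was left out (0.30, edgeR adjusted p = 0.0362).

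**Figure D4:**
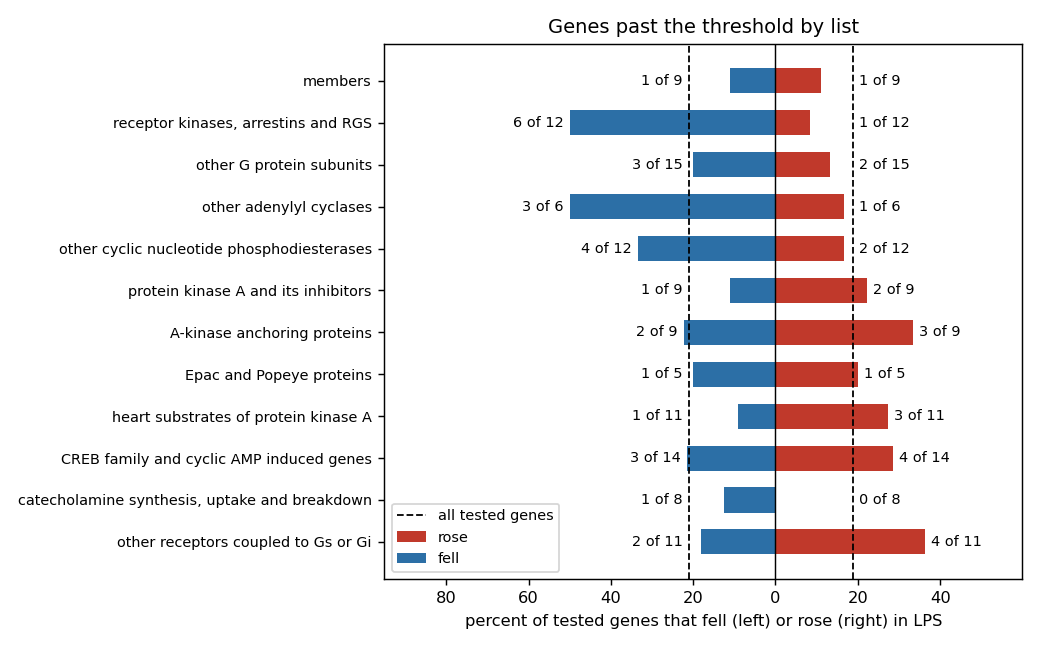
Percent of tested genes in each list that rose (red, to the right) or fell (blue, to the left) in LPS past an adjusted p of 0.05, with the counts beside the bars and the shares of all 13864 tested genes as dashed lines (18.9% rose, 21.0% fell). The members have 1 of 9 on each side, and the list of receptor kinases, arrestins and RGS has 6 of 12 on the falling side.

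Among genes for 11 heart proteins that protein kinase A phosphorylates, 3 rose and 1 fell (36.4%, against 39.9% of all tested genes). Their median log2 fold change was 0.07. Rrad encodes Rad, a small GTPase that restrains the L-type calcium channel until protein kinase A phosphorylates it. It had 683, 622, 579, 733 and 506 CPM in LPS replicates 1 to 5, against 90.0, 74.1, 74.9, 66.4 and 67.6 CPM in saline replicates 1 to 5. The groups lay far apart and saline replicate 5 was inside the range of its own group. Rrad rose by 3.07 on the log2 scale (SE 0.12, edgeR adjusted p = 3.52e-09).

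Cacna1c, the pore of the L-type calcium channel, averaged 206 ± 15.1 CPM in LPS and 200 ± 26.0 CPM in saline (log2 fold change 0.04, edgeR adjusted p = 0.769). Its β subunit gene Cacnb2 averaged 47.3 ± 3.38 CPM in LPS and 57.6 ± 4.75 CPM in saline and fell by 0.28. Pln, which encodes phospholamban, had a log2 fold change of 0.04 ± 0.12 (SE) and Ryr2, the calcium release channel, 0.19 ± 0.12 (SE), neither past the threshold in edgeR. Hspb6 and Mybpc3 rose by 0.29 and 0.25, but with total-count scaling their log2 fold changes were 0.02 and -0.02 and neither passed.

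Of 14 tested genes of the CREB family and genes that cyclic AMP induces, 4 rose and 3 fell, with a median log2 fold change of 0.12. The rising genes included Nr4a3 (29.3 ± 3.39 CPM in LPS, 8.24 ± 6.01 CPM in saline, log2 fold change 1.83), the kinase gene Sik1 (115 ± 16.3 CPM in LPS, 39.3 ± 12.2 CPM in saline, 1.55) and Crem (35.5 ± 10.5 CPM in LPS, 14.9 ± 2.99 CPM in saline, 1.25), which also encodes the inducible repressor ICER. The groups did not overlap in these 3 genes. Other genes of the list known to respond to cyclic AMP did not pass: Nr4a1 had a log2 fold change of 0.31 ± 0.20, Per1 of 0.11 ± 0.14 and Ppargc1a of 0.14 ± 0.23 (SE each). Crtc3, a CREB coactivator, averaged 8.20 ± 1.55 CPM in LPS and 18.6 ± 1.18 CPM in saline and fell by 1.18, and Creb1 fell by 0.61 with overlap.

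Genes for catecholamine handling had 1 of 8 tested past the threshold (12.5%, against 39.9% of all tested genes). Slc18a2, the vesicular monoamine transporter, averaged 1.54 ± 0.494 CPM in LPS and 2.75 ± 0.278 CPM in saline and fell by 0.85. Th, which encodes the first enzyme of catecholamine synthesis, is listed at 0 reads in all 10 libraries. Leaving out saline replicate 5 gave 3 rising and 2 falling genes, when 21% of all tested genes rose and 22.9% fell.

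Of 11 tested other receptors that couple to Gs or Gi, 4 rose and 2 fell (54.5%, against 39.9% of all tested genes). Their median log2 fold change was 0.28. Adora2b, the A2B adenosine receptor, which couples to Gs, averaged 7.82 ± 1.25 CPM in LPS and 1.62 ± 0.805 CPM in saline (log2 fold change 2.28, edgeR adjusted p = 1.57e-05). Adora1, the A1 receptor, which couples to Gi, averaged 28.5 ± 4.44 CPM in LPS and 11.6 ± 3.08 CPM in saline (log2 fold change 1.30, edgeR adjusted p = 3.07e-05). In both genes every LPS library lay above every saline library. Adora2a rose by 0.53 with overlap, and not with total-count scaling (0.25, adjusted p = 0.324). Aplnr, the apelin receptor, averaged 23.3 ± 5.97 CPM in LPS and 60.7 ± 25.4 CPM in saline and fell by 1.38, with saline replicate 5 at 20.0 CPM, inside the LPS range. Chrm2, the muscarinic receptor of the heart, averaged 100.5 ± 14.4 CPM in LPS and 105 ± 15.5 CPM in saline and did not pass (edgeR adjusted p = 0.702).

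**Figure D5:**
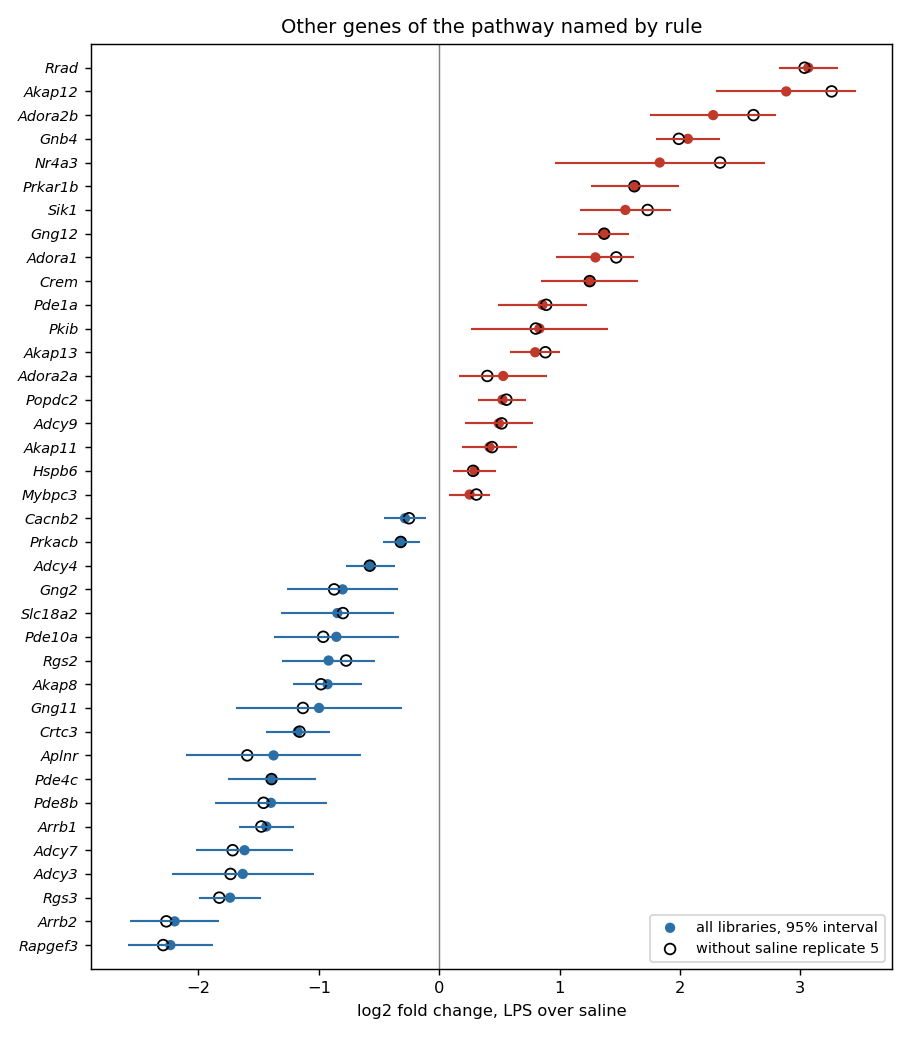
Log2 fold change, LPS over saline, of 38 other pathway genes named by rule (red rising, blue falling). Lines are approximate unadjusted 95% intervals from a normal multiplier of the SE, and open circles the value without saline replicate 5. Rrad (3.07) and Akap12 (2.88) are highest, Rapgef3 (-2.23) and Arrb2 (-2.20) lowest, and no open circle lies on the other side of 0.

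Over the 10 libraries the Pearson correlation of log2 CPM between Adrb1 and Pde4b was -0.921, which the difference between groups contributes to, and within groups it was -0.553. Within groups the highest were 0.925 between Adcy6 and Pde4b and 0.844 between Adra1b and Adcy5. These are descriptions over 10 libraries that share 2 groups and, for the first of them, rest in part on saline replicate 5, which was highest of its group in both genes. The tested gene most like each member over the 10 libraries, among 10085 genes of at least 5 CPM, was Txnrd1 for Pde4b (r = 0.996), Zmat3 for Adrb1 (0.981), Dopey2 for Adra1b (0.974), Pdk2 for Adra1a (0.969), Mrs2 for Pde4d (0.966), Lynx1 for Adcy5 (0.950), Rpl7a-ps5 for Gnas (0.915), Ccdc181 for Pde3a (0.907) and Ap3s1 for Adcy6 (0.885). Each r is the highest of 10085, so selection alone makes it high. For Pde4b and Adrb1 the difference between groups also contributes. Within groups r was 0.837 in LPS and 0.958 in saline for Txnrd1 with Pde4b. For Zmat3 with Adrb1 it was 0.974 in LPS and 0.894 in saline.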

How the data were processed

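Read counts and FPKM values per gene, as the authors deposited them, came in 1 column of each per library for 54532 Ensembl identifiers. Bowtie 0.12.2 and mm9 stand in the submitters' processing notes, but 53499 identifiers had the same start and end in GENCODE M21, so coordinates are GRCm38. Of the 9 members, 8 matched in this way and Adrb1 did not. Which tool counted reads, and whether by strand, is not given here. Counts were tested with edgeR 4.0.16 in R 4.3.3 (filterByExpr with a minimum count of 10, TMM scaling, quasi-likelihood F-test with robust dispersion, Benjamini-Hochberg over 13864 genes, threshold 0.05). "Rose" and "fell" denote genes past that threshold. Standard errors were derived from the F statistic. Unadjusted 95% intervals of fold changes used a normal multiplier of the SE, so they are approximate and narrower than the F-test implies. CPM are counts over the TMM-adjusted library size. Ratios used counts plus 0.5 and were tested with exact two-sided permutation in SciPy 1.17.1, adjusted over 5 ratios. The deposited FPKM were used for levels between genes and in no gene-wise test.

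Members, lists and rules were chosen with earlier results of these data known. Text names all members and, per pathway list, up to 4 genes past the threshold with the largest absolute change and a mean of at least 1 CPM. Adra1d, Adra2b, Akap1, Akap5, Bves, Cacna1c, Chrm2, Creb1, Gnai2, Gnai3, Gnb2, Grk2, Grk5, Nr4a1, Pde4a, Per1, Pln, Ppargc1a, Prkaca, Ryr2 and Th lie outside that rule and were named after their values were seen. Alternatives tried were scaling by RLE, by upper quartile or by total count, 2 other filters, DESeq2 1.42.0, limma 3.58.1 voom, a replicate block and leaving out each library. The script was tested on simulated data. Some genes of the lists are not reported here. In further deposited tables the LPS columns are named for 3 h; these were not used, and groups follow the labels, which give 24 h.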

Additional observations from a re-analysis of the deposited data

Results flagged for a closer look

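In groups of 5 libraries, 106 sets of values (members, pathway genes named by rule, and ratios) were compared with Dixon's 95% critical value for 5 values, which chance passes in about 1 set in 20. The highest or lowest library stood apart in 8 of them, and 4 of the 8 were in saline replicate 5. That library was the highest of the saline group for Pde4b at 76.1 CPM, for Akap12 at 180 CPM and for Adcy6 at 184 CPM, and the lowest for Gng2 at 3.62 CPM. Its Pde4b and Akap12 values lay on the side of the LPS group, as did its value for Gng2. Gnas was highest in LPS replicate 1 at 58.2 CPM. Pkib was highest in saline replicate 3 at 1.40 CPM, and Crtc3 was lowest in the same library at 16.5 CPM. The log2 ratio of Adra1a to Adra1b was highest in LPS replicate 4, at 0.273.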

How the results depend on the processing

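Pde4b rose and Adrb1 fell in all 18 alternatives run (log2 fold change 2.70 to 3.23 for Pde4b and -0.91 to -0.55 for Adrb1). Over all members, 149 recomputed fold changes kept their direction and side of the threshold, 6 came to pass it and 7 changed sign. Both upper quartile factors and total counts gave 4 falling members (Adrb1, Adra1b, Adcy6 and Pde3a), against a share of falling genes of 31.8% and 41.6%, and the median of all genes was at -0.18 and -0.30. Under upper quartile scaling Gnas (-0.046) and Pde4d (-0.086) changed sign. Under total-count scaling Gnas (-0.15), Pde4d (-0.20), Adcy5 (-0.10) and Adra1a (-0.0061) did. Leaving out 1 library at a time, Gnas was at -0.29 (without LPS replicate 1) to 0.29. Total-count scaling gave 7 falling G protein subunits, 0 rising other cyclases, 1 rising other phosphodiesterase, 1 rising and 2 falling protein kinase A genes, 0 rising Epac and Popeye genes, 1 rising and 3 falling kinase substrates, 5 falling CREB family genes, 4 falling catecholamine genes and 2 rising Gs or Gi receptors. Total-count scaling also gave 9 falling receptor kinases, arrestins and RGS, 6 falling other phosphodiesterases, and 2 rising and 3 falling anchoring protein genes. With it, 3 CREB family genes rose and 3 Gs or Gi receptors fell. Beside these list counts, 12.3% of all tested genes rose and 41.6% fell with total-count scaling. Without saline replicate 5, 2 Epac and Popeye genes rose, and 3 catecholamine genes rose and 2 fell. Of all tested genes, 21% rose and 22.9% fell without that library. The cause of the scaling differences was not tested.

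Leaving out 1 library at a time, the ratio differences were 0.40 to 0.60 for Adra1a over Adra1b and 2.85 to 3.09 for Pde4b over Pde4d, past the threshold each time. They were 0.25 to 0.41 for Adcy5 over Adcy6, which passed without LPS replicate 4 (adjusted exact permutation p = 0.0265), -0.85 to -0.33 for Adrb1 over Gnas, which passed without LPS replicate 5 (0.0265), and -0.28 to -0.094 for Pde3a over Pde4d, which passed without saline replicate 1 (0.0265). With the replicate number as a block, 1 member rose and 1 fell, as without it. Deviations of same-numbered libraries correlated at -0.0687 to 0.181. The labels do not say whether same-numbered libraries were handled together, and these correlations cannot settle it.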

Other observations

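Akap5 encodes the anchoring protein that holds protein kinase A, adenylyl cyclase and calcineurin at β-adrenoceptors and the L-type calcium channel. It did not pass the filter on low counts, and it was singled out after its values were seen. It had 0.138, 0.156, 0.184, 0 and 0.291 CPM in LPS replicates 1 to 5, against 7.98, 6.69, 7.96, 7.47 and 0.297 CPM in saline replicates 1 to 5. Saline replicates 1 to 4 held 544 reads, saline replicate 5 held 5 reads and the 5 LPS libraries together held 11 reads. Without saline replicate 5 the gene passed the filter, and its log2 fold change was -5.50. It did so only through saline replicates 1 to 4, where it was high, so no p-value is given. The value of saline replicate 5 lay just above the highest LPS value. For Aplnr (20.0 CPM) it lay inside the LPS range, while for Rrad (67.6 CPM) and Rapgef3 (27.0 CPM) it lay well outside it.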
